A study of Spirodela polyrhiza with 12 samples.

Results

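The response of Spirodela polyrhiza leaves to the middle of 3 temperatures was described by setting the 4 libraries labelled middle temperature against the 4 labelled indoor temperature, which are 8 of the 12 libraries of the series. The libraries were chosen by their labels alone. The comparison ran over 15209 of the 18099 genes in the deposited table, those with an FPKM (a fragment count per length of transcript and per depth of the library) of at least 1 in at least 4 of the 12 libraries. Spirodela polyrhiza, the giant duckweed, is a small floating water plant, and poly(A)-selected RNA from its leaves was sequenced as read pairs. The remaining 4 libraries came from high temperature, and they entered the gene filter, the scaling and the estimate of the spread, but not the contrast itself. The groups carry no other label than their temperature. The degrees, the length of exposure and the clone grown are not stated in the labels. Whether replicate libraries stem from separate cultures is not stated either, so p-values reflect only the spread between these libraries, which may be technical.

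In plants, warming activates heat shock transcription factors. These switch on chaperones, proteins that hold or refold heat-damaged proteins. Milder warmth can also reset growth, photosynthesis and membrane composition without the full heat shock programme. The series title names the aquaporins, channels that let water cross membranes. The files do not pair the gene identifiers with names, so neither the aquaporins nor any other gene group is analysed here, and the tissue label could not be checked against leaf marker genes. Genes are given by identifier, at most 2 in each direction.

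The deposited counts per library summed to between 24942682 and 32467069 at middle temperature and between 23655239 and 28826999 at indoor temperature. The totals did not differ beyond their spread by an exact permutation test, two-sided (p = 0.114, with 4 libraries per group, and 0.152 after Benjamini-Hochberg adjustment over 4 library measures). No group had a pair of libraries with identical counts. The middle libraries were more alike than the indoor ones. Spearman correlations, taken across genes that are no independent replicates, ran from 0.968 to 0.980 among middle libraries and from 0.949 to 0.978 among indoor libraries. Between the groups they ran from 0.897 to 0.922. The SD of log2 TMM-scaled counts within a group had a median over genes of 0.27 at middle and 0.30 at indoor temperature, and it was larger at indoor temperature for 58.6% of the genes. TMM sets a factor per library on the premise that most genes do not change.

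Principal components over the 8 libraries placed the difference in temperature first. The first component held 52.6% of the variance and had the 4 middle libraries between 52.3 and 61.0 and the 4 indoor libraries between -68.1 and -47.2. The second component held 16.3% and spread the indoor libraries alone. Indoor replicates 1 and 2 were at -54.2 and -35.9 on it, indoor replicates 3 and 4 at 53.6 and 25.5, and the 4 middle libraries stayed between -2.62 and 5.26. The same division showed in the counts themselves. The chi-square per degree of freedom was 74.2 between indoor replicates 1 and 2 and 89.3 between indoor replicates 3 and 4, but 156 to 194 across these pairs. Among middle libraries it was 52.5 to 127. The labels give nothing that divides the indoor libraries, and the part of this division in the calls was not tested.

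**Figure D1:**
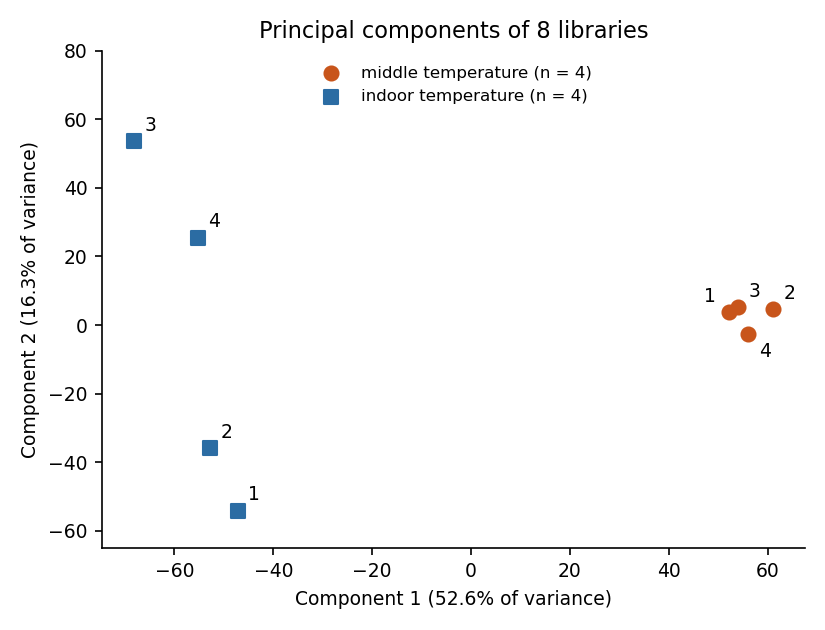
Scores of the 4 middle and 4 indoor libraries on the first and second principal components of log2 TMM-scaled counts over 15209 genes, with replicate numbers beside the points. The groups stand apart along the first axis (52.6% of the variance), and the second axis (16.3%) separates indoor replicates 1 and 2 from 3 and 4.

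A large part of the transcriptome differed between middle and indoor temperature, in both directions. At an adjusted p under 0.05 in edgeR's quasi-likelihood test, 5614 genes were called, which is 36.9% of those tested. Of these, 2927 genes were higher (19.2%) and 2687 lower (17.7%) at middle temperature. Without any 1 of the 8 libraries, 2528 to 2842 genes were called higher and 2058 to 2356 lower. Called rises had a median log2 fold change of 1.09, with an interquartile range of 0.73 to 1.58, and called falls had a median of -0.87, with an interquartile range of -1.26 to -0.63. The median standard error of a log2 fold change was 0.23 for the rises and 0.21 for the falls. Of the called genes, 1301 rises and 1613 falls were smaller than 2-fold.

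A fold change of at least 2 was reached by 17.8% of the genes tested, of which 1626 were higher (10.7%) and 1074 lower (7.06%). At least 4-fold changes were fitted for 416 higher and 185 lower genes, and at least 8-fold changes for 98 higher and 33 lower genes. Of the last, 12 higher genes had a count of 0 in all 4 indoor libraries and 1 lower gene had a count of 0 in all 4 middle libraries, where the fitted fold is no bound. The balance of directions moved with the scaling. When libraries were scaled by their totals alone, the median log2 fold change over all genes was 0.12 in place of -0.02, and edgeR called 3385 genes higher and 1813 lower. limma on log2(FPKM + 1), which also has no such factor, called 3690 higher and 1948 lower, and on log2(FPKM + 0.1) it called 3501 higher and 1833 lower. The excess of rises of at least 2-fold over falls of that size held in each of these settings. It was smaller with limma after quantile normalization, which gives every library the same distribution, at 1115 rises and 970 falls.

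**Figure D2:**
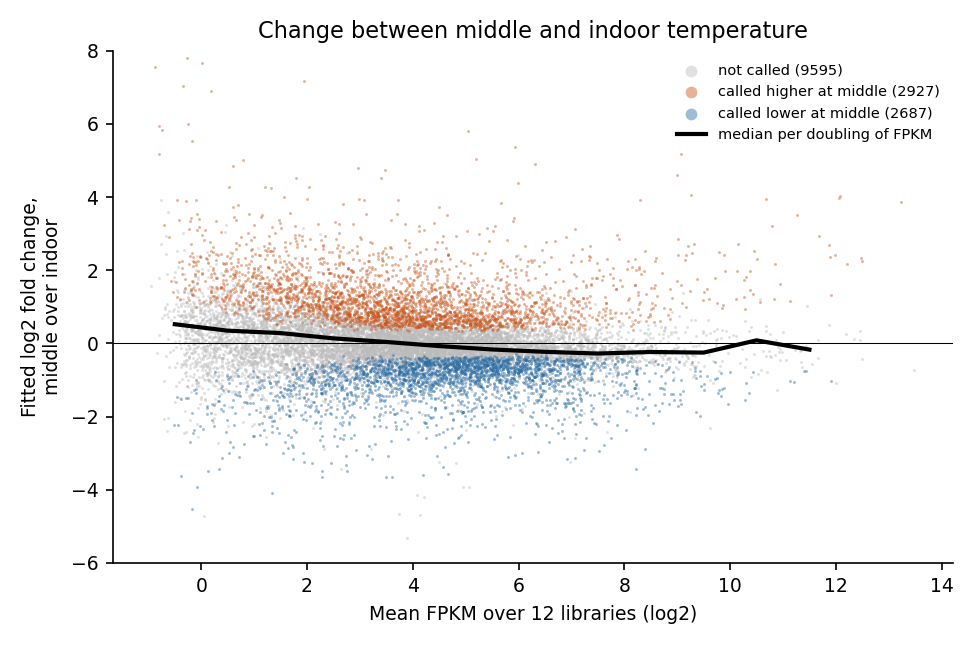
Fitted log2 fold change of middle over indoor temperature (TMM-scaled) against the mean FPKM over 12 libraries on a log2 scale, 1 point per gene, with 2927 genes called higher and 2687 called lower in colour and 3 genes beyond the vertical axis. The black line is the median per doubling of FPKM in bins of at least 20 genes and slopes from above 0 among weakly expressed genes to below 0 among most strongly expressed ones.

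For most called genes the 2 groups were fully apart. Over all genes tested, 38.0% had no overlap between the groups in TMM-scaled counts. The 4 middle libraries lay above all 4 indoor libraries for 3028 genes (19.9%) and below all of them for 2757 (18.1%). Among genes called higher, 2594 (88.6%) were apart in this way, and among genes called lower 2277 (84.7%) were.

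The called genes were then read in libraries left out of the fit. The gene filter still used all 12 libraries, so for a gene that passed it through the 4 middle libraries alone the reading is not independent. When a middle library was left out of the fit, the genes called at least 2-fold higher without it numbered 1535 to 1551. In the left-out library they stood above the mean of the 4 indoor libraries by a median log2 difference of 1.46 to 1.51, and 94.5% to 97.7% of them lay above all 4 indoor libraries. Over all genes tested, 32.1% to 34.1% lay above all 4 indoor libraries in the same 4 middle libraries. The genes called at least 2-fold lower, 925 to 1033 of them, had median log2 differences of -1.52 to -1.20 in the left-out middle library, and 91.1% to 94.7% of them lay below all 4 indoor libraries, against 31.3% to 32.5% of all genes. Middle replicate 2 showed the deepest falls of the 4 middle libraries, with a median of -1.52, against -1.32 to -1.20 in the other 3. The indoor libraries were shared between calling and reading here.

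Left-out indoor libraries gave more varied shares of genes, and more varied medians for the rises but not for the falls. The genes called at least 2-fold higher without it were above the left-out indoor library in all 4 middle libraries for 95.0% to 95.4% of the genes in indoor replicates 2, 3 and 4, and for 89.2% in indoor replicate 1. The median log2 difference was 1.30 in indoor replicate 1 and 1.42 to 1.49 in the other 3. Over all genes tested the corresponding share was 33.0% to 37.3%. For genes called at least 2-fold lower, 95.7% lay below indoor replicate 1 in all 4 middle libraries, and 87.4% to 89.5% below indoor replicates 2, 3 and 4, against 34.1% to 36.0% of all genes. Indoor replicate 1 thus gave the smallest rises and indoor replicate 4 the smallest falls, with a median of -1.19.

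**Figure D3:**
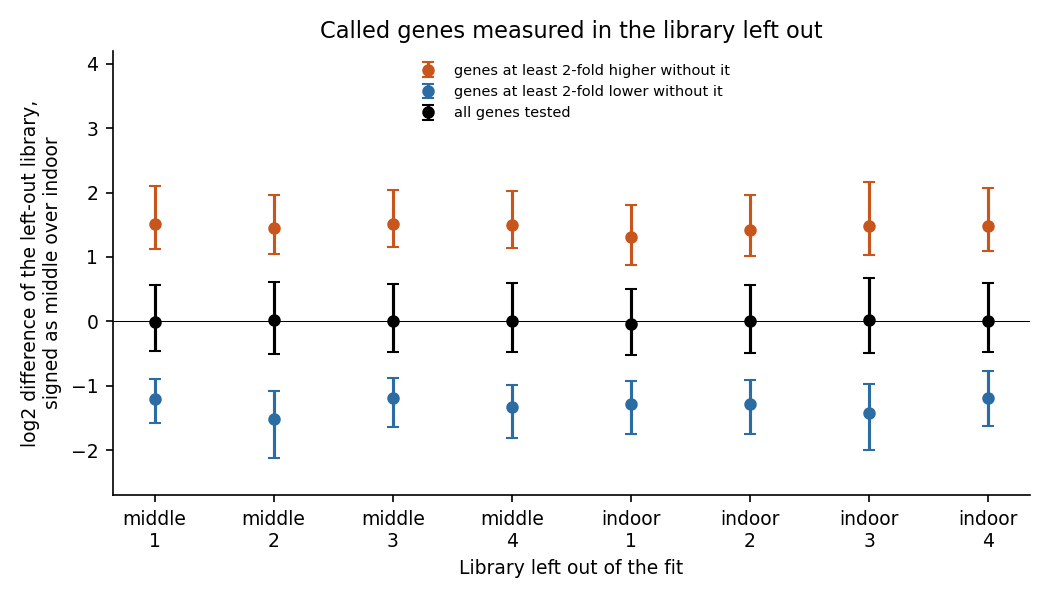
log2 difference between the library left out of the fit and the mean of the other group, signed as middle over indoor, for genes called at least 2-fold higher (orange) or lower (blue) without that library and for all genes tested (black). Points are medians over genes and bars interquartile ranges; the medians ran from 1.30 to 1.51 for higher and from -1.52 to -1.19 for lower genes, and stayed within 0.04 of 0 for all genes.

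The direction of change went with the level of expression under TMM scaling. Among 5161 genes with a mean FPKM of 5 to under 20 over the 12 libraries, 1126 were higher (21.8%) and 801 lower (15.5%) at middle temperature. Among 4859 genes of 20 to under 100, 842 were higher (17.3%) and 1221 lower (25.1%). Among 1486 genes of 100 and over, 253 were higher (17.0%) and 373 lower (25.1%). The median log2 fold change moved from 0.05 through -0.15 to -0.25 over these classes. Below an FPKM of 5 the classes are shaped by the filter, since a weak gene could enter through 1 group alone. There, 644 of 3310 genes with a mean of 1 to under 5 were higher (19.5%) and 273 lower (8.25%). Of 393 genes with a mean under 1, 62 were higher (15.8%) and 19 lower (4.83%). Over all genes tested, 19.2% were higher and 17.7% lower, so the weak classes held fewer falls rather than more rises.

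The excess of falls among strongly expressed genes and that of rises among weak genes were not kept in every setting. With library totals, the strongest class had 296 higher and 279 lower genes, and the class of 20 to under 100 had 1034 higher and 818 lower, so rises outnumbered falls in both. The order of the medians by class was kept, from 0.19 through -0.01 to -0.11. Quantile normalization gives every library the same distribution and so removes any difference in its shape. It was applied to log2(FPKM + 1) and tested with limma, so the measure and the test changed with the scaling. It left 340 higher and 271 lower genes in the strongest class and 1024 higher and 986 lower in the class of 5 to under 20. In the class of 1 to under 5 it left 438 higher and 500 lower genes, and in the class under 1 it left 20 and 42. Class medians then lay between -0.04 and -0.02.

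**Figure D4:**
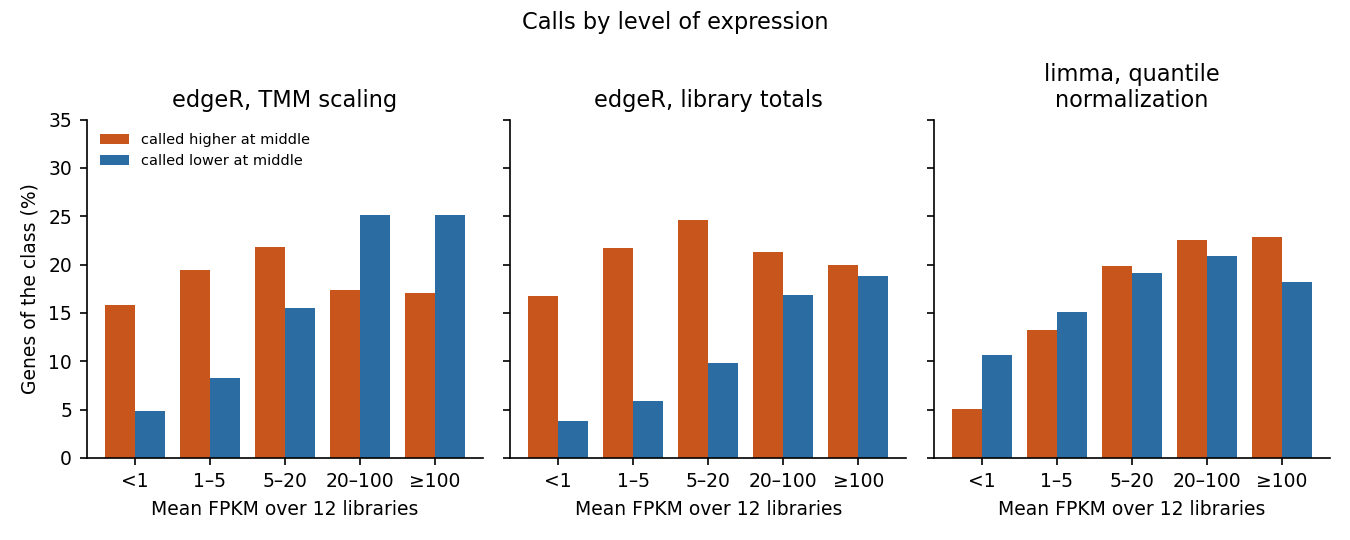
Share of genes called higher (orange) or lower (blue) at middle temperature in 5 classes of mean FPKM over 12 libraries, under 3 scalings. With TMM the 2 strongest classes held more falls (25.1% and 25.1%) than rises (17.3% and 17.0%); with library totals or quantile normalization they did not.

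The error of a fold change was smallest in the class of 20 to under 100. The median standard error of the log2 fold change was 0.67 for genes with a mean FPKM under 1, which had a median of 30.5 counts per library, and 0.40 for genes of 1 to under 5. It was 0.23 for genes of 5 to under 20 and 0.18 for those of 20 to under 100, the last with a median of 1507 counts per library. For genes of 100 and over it was 0.22 despite a median of 5564 counts, and the within-group SD of log2 values was also larger than in the class below (0.27 against 0.20 at middle temperature, and 0.28 against 0.23 at indoor temperature). The called changes of weak genes were mostly large: 540 of 644 rises in the class of 1 to under 5 were at least 2-fold, against 325 of 842 in the class of 20 to under 100. A larger standard error lets only larger changes be called, and the part of this in the contrast was not tested.

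More genes were detectable at middle temperature. Genes with an FPKM of at least 1 numbered 14829, 15109, 14946 and 15078 in middle replicates 1 to 4, against 14687, 14486, 14154 and 14492 in indoor replicates 1 to 4. Every middle library thus exceeded every indoor one, by 535.75 genes on average. The difference had the smallest p that 4 against 4 libraries allow (two-sided exact permutation test, p = 0.0286). After Benjamini-Hochberg adjustment over 4 library measures the p was 0.114, and 1 measure alone cannot pass that adjustment. FPKM carries no TMM factor. That factor was 1.14 to 1.39 in middle and 1.09 to 1.20 in indoor libraries, so an equal FPKM stands for a lower TMM-scaled value in most middle libraries, and the part of this in the detection difference was not tested.

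Genes at the edge of detection went mainly one way. An FPKM of at least 1 was reached in all 4 middle and in no indoor library by 142 genes, and in all 4 indoor and no middle library by 26 genes, while 13268 genes reached it in all 8. These sets were chosen by the values compared, so they are a description. Most were weak: the 142 genes had a median of their mean FPKM of 2.38 at middle and 0.491 at indoor temperature, and 13 of them averaged at least 5 at middle temperature. The strongest reached a mean of 21.4. Only 2 of the 142 had no count at all in any indoor library. Of the 142 genes, 45 had an FPKM of at least 1 in all 4 high-temperature libraries and 37 in none. The 26 genes had a median of 2.28 at indoor temperature against 0.514 at middle temperature, and 20 of them had an FPKM of at least 1 in no high-temperature library.

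The most abundant transcripts held somewhat less of the library at middle temperature. The top 10 genes by count in each library held 4.61%, 3.75%, 4.19% and 4.47% of the counts in middle replicates 1 to 4, against 5.39%, 5.07%, 5.01% and 4.51% in indoor replicates 1 to 4. The groups overlapped only in that middle replicate 1 was above indoor replicate 4. The number of genes that together held 50% of the counts was 901 to 1182 at middle and 857 to 1005 at indoor temperature, and the groups overlapped. Neither difference passed a two-sided exact permutation test (p = 0.0571 and 0.257, and 0.114 and 0.257 after Benjamini-Hochberg adjustment).

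The genes called higher and lower exchanged shares of the library, and the genes not called held like shares in both groups. Genes called higher held 23.1% ± 0.69 of the counts at middle and 9.47% ± 0.20 at indoor temperature (SD, n = 4). Genes called lower held 16.7% ± 0.18 at middle and 30.2% ± 1.32 at indoor temperature. The 9595 genes not called held 60.1% ± 0.55 and 60.2% ± 1.28. These shares follow from the calls and are given as a description. They were spread over many genes: 109 genes made up 50% of the summed gain in mean FPKM of the genes called higher, and 153 genes 50% of the summed loss of those called lower. The 10 largest contributors made up 14.8% of the gain and 12.1% of the loss.

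The list of leading transcripts was renewed in part. Of the 100 genes with the highest mean FPKM at middle temperature, 70 were also among the 100 highest at indoor temperature. Of the 30 genes that led at middle temperature only, 22 were called higher and 0 lower, and 21 of the rises were at least 2-fold, where 19.2% of all genes tested were called higher and 10.7% at least 2-fold. They held 4.69% of the summed FPKM at middle and 1.59% at indoor temperature. Of the 30 that led at indoor temperature only, 20 were called lower and 0 higher, 14 of them at least 2-fold, where 17.7% of all genes tested were called lower and 7.06% at least 2-fold. They held 2.23% of the summed FPKM at middle and 4.36% at indoor temperature. These genes were chosen on the values compared, so their direction is no test.

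By the naming rule, the genes given by identifier are those with the largest gain or loss of mean FPKM among the 1494 rises and 912 falls that were called, at least 2-fold and free of overlap between the groups. The largest gain was that of Spipo21G0021400.v2. Its FPKM was 5155, 2843, 4026 and 5471 in middle replicates 1 to 4, against 197, 282, 433 and 197 in indoor replicates 1 to 4. Even the lowest middle library was far above the highest indoor one, and middle replicate 2 was the lowest of its group. The log2 fold change was 3.85 ± 0.38 (SE), and edgeR's quasi-likelihood test gave a Benjamini-Hochberg adjusted p of 1.60e-05. The gene was the 7th most abundant by mean FPKM at middle temperature and the 481st at indoor temperature. It made up 3.82% of the summed gain of all genes called higher. In the high-temperature libraries its FPKM was 20969 to 27526.

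The second largest gain under the naming rule was that of Spipo4G0005400.v2, which was already abundant in the controls. Its FPKM was 3210, 2053, 2687 and 2276 in middle replicates 1 to 4, against 746, 820, 1345 and 864 in indoor replicates 1 to 4. The groups did not overlap, and indoor replicate 3 stood nearest to the middle libraries. The log2 fold change was 1.32 ± 0.28 (SE; edgeR, Benjamini-Hochberg adjusted p = 0.00302). The FPKM was 6683 to 9659 at high temperature.

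Among the 912 falls eligible under the naming rule, the largest losses of FPKM were modest falls of 2 of the most abundant transcripts. Spipo23G0000600.v2 had an FPKM of 2563, 3272, 2756 and 2965 in middle replicates 1 to 4, against 4707, 5681, 3815 and 7186 in indoor replicates 1 to 4. The indoor libraries were the more scattered, and indoor replicate 3 came closest to the middle group. Its log2 fold change was -1.02 ± 0.20 (SE; edgeR, Benjamini-Hochberg adjusted p = 0.00175). The call was lost with limma after quantile normalization, at a log2 difference of -0.52 (limma, adjusted p = 0.138, the highest over the alternatives). The FPKM was 2467 to 3587 at high temperature.

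Spipo23G0000300.v2 had an FPKM of 1417, 2239, 1897 and 1618 in middle replicates 1 to 4, against 2807, 3354, 2399 and 5039 in indoor replicates 1 to 4. The groups were apart, but indoor replicate 3 was only a little above middle replicate 2. The log2 fold change was -1.05 ± 0.23 (SE; edgeR, Benjamini-Hochberg adjusted p = 0.00349). The FPKM was 1294 to 2409 at high temperature. Both falling genes kept a nearly fixed proportion, with an FPKM ratio of the first to the second of 1.45 to 1.83 in middle and 1.43 to 1.69 in indoor libraries. The identifiers are close, and whether the genes are near-identical copies that share reads could not be told from the files, so their values may not be independent.

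**Figure D5:**
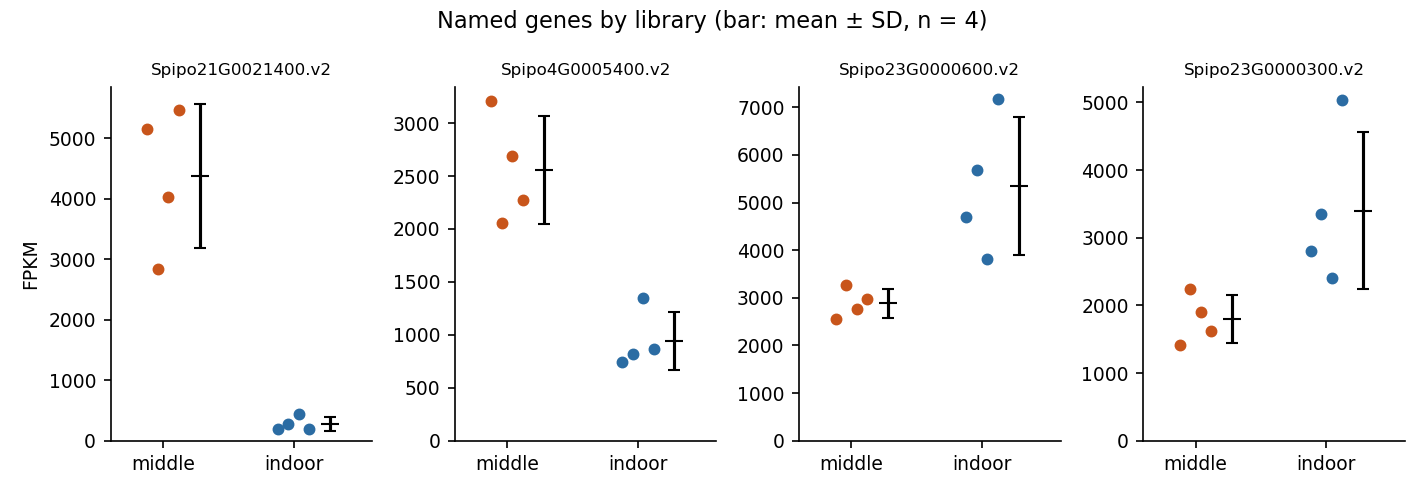
FPKM of the 4 named genes in each middle (orange) and indoor (blue) library, with the mean ± SD of 4 libraries in black on a linear axis from 0. In every panel the groups are apart; Spipo21G0021400.v2 shows the widest gap, with means of 4374 at middle and 277 at indoor temperature.

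The high-temperature libraries entered the filter and the fit behind these calls but not the contrast, and their levels for the same genes are given here. The comparisons share the middle or the indoor libraries, so their values are set side by side without a test. The 1626 genes called at least 2-fold higher had median log2 fold changes of 1.50 for middle over indoor, 1.20 for high over indoor and -0.36 for high over middle temperature. The last had an interquartile range of -0.92 to 0.45, so these genes lay on both sides of 0. The 1074 genes called at least 2-fold lower had medians of -1.39 for middle over indoor, -0.81 for high over indoor and 0.63 for high over middle temperature, the last with an interquartile range of 0.19 to 1.04. Over all genes tested the same medians were -0.02, -0.04 and 0.0033. The high-temperature libraries had TMM factors of 0.630 to 0.767, against 1.14 to 1.39 in middle libraries. Without that factor, the median over genes of the mean FPKM fell from middle to high temperature. It went from 12.98 to 5.93 for the 1626 genes, from 12.88 to 10.56 for the 1074 and from 17.42 to 9.59 over all genes. For the 1074 genes this is opposite in sign to 0.63, which is a median of log2 fold changes under TMM scaling. Their share of the counts, also without a TMM factor, was 5.65% ± 0.30 in middle and 5.98% ± 0.70 in high-temperature libraries. The direction of their change from middle to high temperature thus depended on the measure used. The 1626 genes held 13.1% ± 0.94 of the counts in middle and 3.79% ± 0.08 in indoor libraries, and 33.5% ± 3.47 in high-temperature libraries.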

How the data were processed

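The submitters' processing notes list StringTie 1.3.4d, UMI-tools, HISAT2 2.0.4, cutadapt 1.9, edgeR and DESeq2 and give no roles. Genome build, annotation and strand setting are not given in the sources used; overlapping genes and near-identical copies are therefore uncertain. Per the file headers, the authors deposited an FPKM and a count per gene and library. The deposited counts are whole numbers, used as deposited and treated as estimated counts. A count of 4 occurred 1807 times and a count of 1 470 times, so a fragment may add several counts.

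Here edgeR 4.0.16 (R 4.3.3) fitted all 12 libraries with a term per group, TMM scaling and a robust trended quasi-likelihood test with Benjamini-Hochberg adjustment over 15209 genes. A standard error is the log2 fold change divided by the square root of F. The test was also run on simulated data in which few genes changed, in random directions, so that run does not probe the premise of TMM scaling. limma 3.58.1, DESeq2 1.42.0 and other scalings and filters were alternatives. Library measures used exact permutation tests (scipy 1.17.1). Named genes are the 2 with the largest gain and the 2 with the largest loss in mean FPKM among called, at least 2-fold changed genes whose groups did not overlap. The members, classes and rules were chosen with earlier results of these data known. Replicate numbers were not treated as pairs in the main fit.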

Additional observations from a re-analysis of the deposited data

How the results depend on the processing

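Over 20 alternatives, 99 of 100 counts of called genes stayed within 1.5 times the reported count. The exception was limma on log2(FPKM + 1), with 663 genes at least 2-fold lower, against 1074, and the cause was not tested. For the named genes, 79 of 80 alternative values had the same direction and an adjusted p under 0.05, and the call lost is given with its gene. The 2-fold size of the 2 falls was not kept in every setting. Their log2 changes ran from -1.09 to -0.52 for Spipo23G0000600.v2 and from -1.13 to -0.83 for Spipo23G0000300.v2. The 37 alternative values of library measures all missed the adjusted threshold. With 4 against 3 libraries it cannot be reached, and with 4 against 4 it cannot be reached by 1 measure alone. Of the 5614 called genes, 4564 to 4827 were called in the same direction without any 1 library, 4740 with library totals, 4879 after quantile normalization and 5611 with DESeq2, and 0 were called in the opposite direction under any alternative. Counts divided by 4, chosen after seeing the data, called 5833.

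Fits without 1 of the 8 libraries gave between 4674 and 5084 called genes, 2528 to 2842 higher, 2058 to 2356 lower, 1535 to 1682 at least 2-fold higher and 909 to 1120 at least 2-fold lower. The differences ran from 435.5 to 613 genes detected, from -0.897 to -0.567 percentage points in the share of the 10 most abundant genes, from 41.5 to 135 genes holding 50% of the counts, and from 2479380 to 4987510 in total counts. A replicate block brought the called genes to 5072. Same-numbered middle and indoor libraries correlated at -0.13 to 0.08 in their deviations from the group means. Of the 4 middle libraries, 1 correlated best with its own number. No pairing by number showed, which does not exclude one.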

Other observations

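The length implied by each gene's ratio of counts to FPKM went with the share of genes called, more steadily for rises than for falls. In 5 equal classes of that length, from the shortest to the longest, 14.8%, 16.0%, 19.7%, 21.7% and 24.1% of genes were called higher at middle temperature, against 19.2% of all genes tested. Genes called lower made up 13.6%, 17.6%, 19.3%, 19.1% and 18.7%, against 17.7% of all genes tested. The median count per library moved with the length, from 251 to 1153, and the median FPKM the other way, from 18.1 to 11.3, and their part in the pattern was not tested. With library totals, edgeR called 17.2% of the shortest and 27.9% of the longest genes higher, and after quantile normalization limma called 17.6% and 20.4%.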
